A study of Mus musculus with 2 samples.

Results

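A splice junction is a place where sequenced RNA skips a stretch of the genome, and its ends are the splice sites. The junctions described here had no annotated splice site at either end: neither end was used, on the same chromosome and strand, by a junction flagged as annotated. They were chosen by their read counts, at least 5 reads in each of the 2 replicates, and by the annotation flag. This left 8228 of the 914099 junctions in the deposited mm9 file. RNA came from livers of C57BL/6J mouse embryos at 14.5 days, pooled over both sexes, in 2 biological replicates that form a single group, and polyadenylated RNA was sequenced with strand kept. The file gives a first and a second count per junction, and which library each count comes from is not stated, so they are called the first and second count. The first count held 87568498 junction reads and the second 66913746. Members took 723926 and 459926 of these reads, 0.766% of the whole. Because the read counts chose the members, the counts below are descriptions and carry no test.

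Introns are removed by the spliceosome, which in nearly all cases recognises GT at the first bases of the intron and AG at its last bases. A small set of introns starts with GC instead, and a rarer set, handled by the minor spliceosome, starts with AT and ends with AC. An aligner reports a gap wherever the parts of a read match separate stretches of the genome, whatever made the gap. Red cells of the embryo are formed in the liver at this age, so its RNA is rich in globin messages of erythroblasts beside those of plasma proteins made by hepatoblasts.

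The label of 2 unannotated sites held by the rule, but 827 of the 8228 members had exactly the length of an annotated intron on the same strand and lay 1 to 12 bases beside it. These are called displaced annotated introns here. Bases could be read for 54 of those without GT-AG ends. In 44 of the 54 the gap could be moved onto the annotated intron with no change in the spliced RNA. For these 44 the data go against calling the splice sites unannotated, and for the other displaced introns this was not shown. A further 1990 members had an end in 1 of the 4 adult globin genes, Hba-a1, Hba-a2, Hbb-bs and Hbb-bt. The remaining 5411 members, neither displaced nor globin, carried 448977 reads, 37.9% of all member reads.

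The bases at the ends show what kind of gap each set holds. Both ends of 928 members (11.3%) could be read, because they lay within exons of a GENCODE M21 transcript with the same identifier and the same exon and intron lengths as in the mm9 exon table. In each sequence below the capitals are bases that the junction removes and the small letters are bases that it keeps, 14 of each, read 5′ to 3′ along the transcript. None was read from an annotated untranslated region of the transcript used. The first set shows strong readable displaced introns whose equivalent placement is GC-AG, and 1 with AT-AC, and in each the bases beside 1 end recur beside the other.
Cdca3 start: atgaagatcagtggTCCAGGCAAGTGAT
Cdca3 end: TCGGCCTTCTTTCCtccagaccctcagt
Selenbp1 start: cccgaagttgcacaAGGCATGTCCTCTG
Selenbp1 end: TCCTTACCTTCTCCaggtcattgaagcc
Ncaph2 start: gctgcggagacgtaAGGCAAGTACCCAC
Ncaph2 end: GATGTTCTCTGGGCagatcaacgagaga
Psme1 start: gaagaagcaacaggAGGCAAGCTGGGAG
Psme1 end: GTCTTCCTCCCTACagaaggaagagaag
Arl16 start: aaacgccttcagaaTATCCTTCCGCGCC
Arl16 end: TGACCGCCGGGACAgctgagctccggag
In Cdca3, a regulator of entry into mitosis, the gap on chr6:124781502-124782158 starts at TCCAG and the kept sequence resumes with the same 5 bases. Moving the gap 5 bases along the transcript leaves the spliced RNA unchanged and gives an intron with GC at its start and AG at its end, and this is the annotated intron. In Selenbp1, Ncaph2 and Psme1 a move of 2 bases gives GC and AG. In Arl16, on the minus strand, a move of 1 base towards the 5′ end gives an AT-AC intron.

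Of 654 readable members with other ends that were not displaced, 33 had GC-AG and 13 had AT-AC at an equivalent placement. In the other 608 no equivalent placement gives GT-AG, GC-AG or AT-AC, and the second set shows strong members of these.
Hbb-bt start: cgtgattgtgctggGCCACCACCTGGGC
Hbb-bt end: AAGGTGGTGGCTGGagtggctgctgccc
Dlk1 start: aactgcgccagtggCCCGTGCCAGAACG
Dlk1 end: TGTCTGTGCAAGCCcccgttcatgggtc
H19 start: gacacaccattcccATGAGGCACTGCGG
H19 end: AACCGCTCAGTCCCtgggtctggcatga
Rpl17-ps10 start: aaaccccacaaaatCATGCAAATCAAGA
Rpl17-ps10 end: GTGTTCACTTTAAGaacacccgggaaac
The Hbb-bt gap of 64 bases on chr7:110961204-110961267, in the coding region of an adult beta globin, had 2712 and 1671 reads, and GCTGG stands both before the gap and at its end. The Dlk1 gap of 66 bases on chr12:110698063-110698128 had 1412 and 1747 reads and lay in the coding region of this imprinted Notch-related ligand, with 5 bases, CCCGT, at both ends. The H19 gap of 82 bases on chr7:149762980-149763061 had 502 and 259 reads, and H19 is an imprinted noncoding RNA abundant in the fetal liver. In Rpl17-ps10, a pseudogene of a ribosomal protein, the gap of 41 bases on chr7:79794117-79794157 had no base in common at its ends and 694 and 418 reads. Rpl17-ps9 held a member with the same 28 bases at each side, on chr7:36903333-36903373, with 458 and 193 reads, so reads of the pseudogenes cannot be told apart by these bases.

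The third set shows members whose own ends are GT and AG.
Hbb-bt GT-AG start: tgggcaatatgatcGTGATTGTGCTGGG
Hbb-bt GT-AG end: CTGCCTTCCAGAAGgtggtggctggagt
Lyl1 start: aggccagagcagagGTGGGTTCCGCCAT
Lyl1 end: GCCCCTTTCTACAGaggaggtggaccac
Ccnl2 start: tcactccagtaaagGTGTGCATCTTTAA
Ccnl2 end: ATGTTCATTTTAAGactccttgttgcaa
The Lyl1 gap of 100 bases, in the coding region of this blood transcription factor, had 118 and 61 reads and ends that share 2 bases. The Hbb-bt GT-AG gap of 66 bases had 410 and 396 reads and overlapped the 64-base gap of the second set. Ccnl2, a cyclin of splicing speckles, had a 705-base gap in a transcript without a coding region, with 117 and 62 reads.

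The junction file holds a second flag whose meaning is not stated. All 220 readable members with this flag had GT at the start and AG at the end, and none of the 708 readable members without it did. The flag is therefore used here as the mark of GT-AG ends. By this mark 2665 of the 8228 members (32.4%) had GT-AG ends, against 99.7% of 123511 annotated junctions with the same minimum of reads. Of 7648 unannotated junctions with 1 annotated site 94.3% carried it, and of 2394 that pair 2 annotated sites anew 99.9% did.

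The 2 kinds of ends were spread unevenly over positions inside and outside genes. Both ends of 3979 members (48.4%, 95% Wilson interval 47.3% to 49.4%, counting error only) lay within 1 annotated gene on their strand, and 882 of these (22.2%) had GT-AG ends. Another 2441 members reached past the end of a gene on their strand, 385 of them with GT-AG ends (15.8%), and 146 did so only for a gene on the other strand. Outside all genes lay 1329 members, of which 1081 (81.3%) had GT-AG ends. Within a gene on the other strand only lay 333 members, of which 240 (72.1%) had GT-AG ends. Members outside genes were thus mostly GT-AG and members inside genes mostly not, a description of these counts with no test. With displaced introns and adult globin genes left out, 806 members inside genes had GT-AG ends and 1825 had other ends. Among junctions with 1 annotated site 91.8% lay inside a gene on the same strand. None of those could lie outside all genes, because an annotated site is itself within a gene. The definition of the classes thus shapes this difference from the members.

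**Figure D1:**
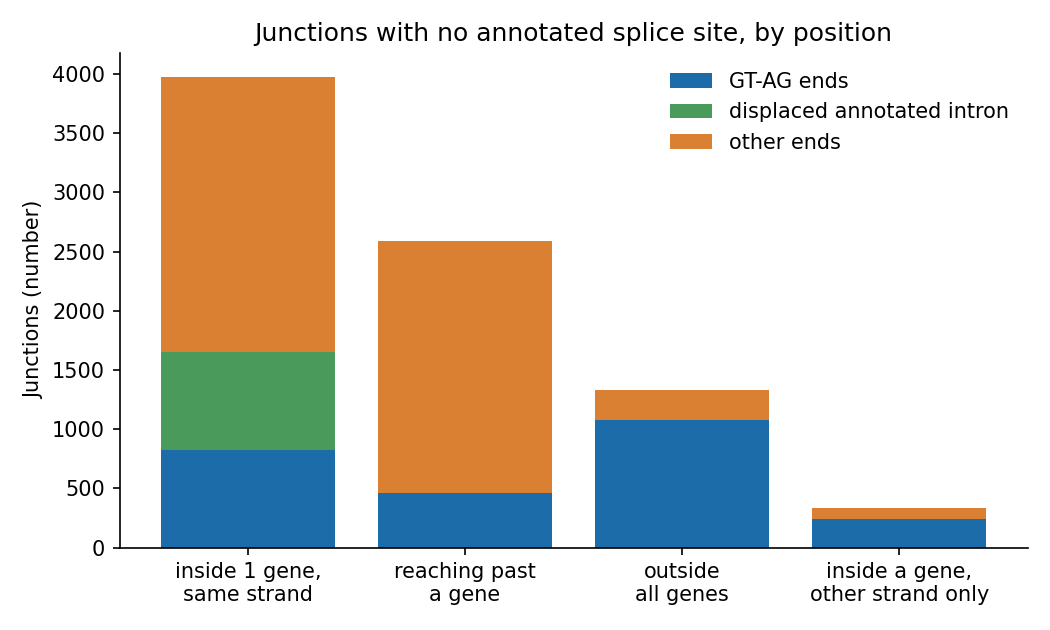
Number of junctions with no annotated splice site (y axis) in each position class (x axis), with those reaching past a gene on either strand joined; colours split each bar into GT-AG ends, displaced annotated introns and other ends. Displaced introns stand only in the bar of 3979 members inside genes, which their definition by an annotated intron nearly requires. GT-AG ends make up 1081 of the 1329 members outside genes.

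The displaced annotated introns included many of the strongest members. They carried 338390 reads, 28.6% of all member reads from 827 of 8228 members, with medians of 94 and 53 reads. Annotated junctions had medians of 105 and 58. They lay in 750 genes, 770 had other ends and 57 had GT-AG ends. In 792 of the 827 the annotated intron lay at higher genome coordinates than the junction, among them 759 of the 770 with other ends. On the plus strand 292 of 476 with other ends were displaced by 2 bases, and on the minus strand 215 of 294 by 1 base. Of the 57 with GT-AG ends 49 were displaced by 4 bases. In 18 of these, on the plus strand, the annotated intron lay at lower coordinates. In the other 31, on the minus strand, it lay at higher coordinates. In only 9 of the 827 did the file also hold a junction at the annotated position itself.

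Among the 54 displaced introns with other ends that could be read, 40 had GC-AG, 3 had AT-AC, 1 had GT-AG and 10 had none of these at an equivalent placement. For all 44 with such a motif the motif's placement was that of the annotated intron. The median displaced intron with other ends had 47.2% of the reads of the strongest annotated junction of its gene. For the other members inside genes that were not globin the median was 5.81% with GT-AG ends and 0.766% with other ends.

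**Figure D2:**
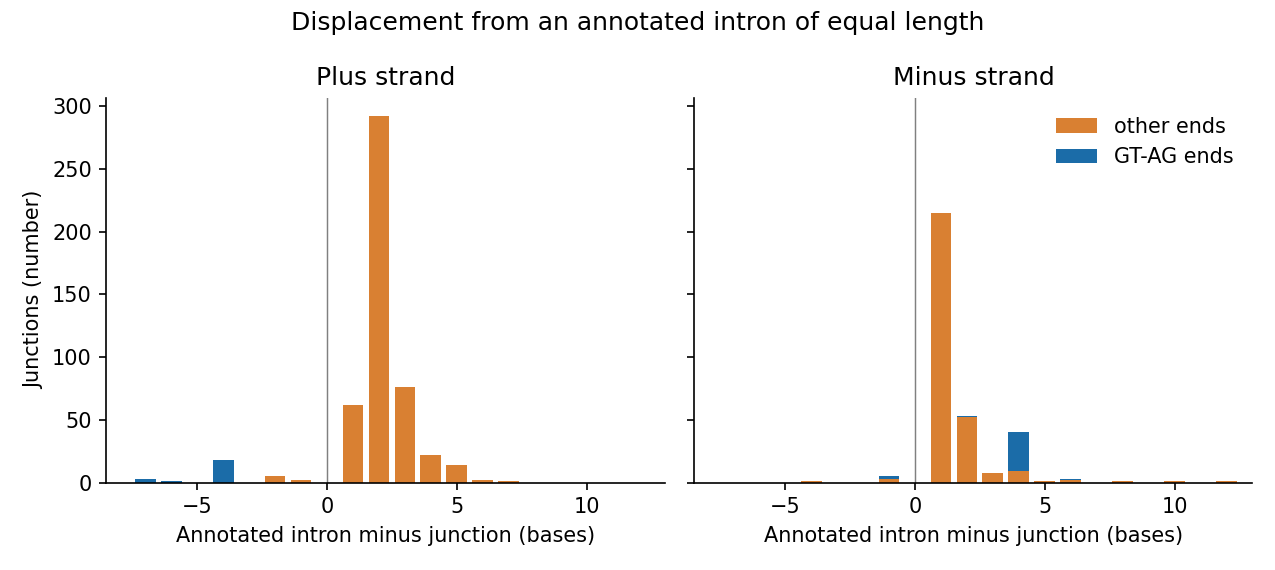
Number of displaced annotated introns (y axis) by the distance in bases from the junction to the annotated intron of equal length (x axis, genome coordinates), for each strand and kind of ends. The tallest bars are 292 junctions at 2 bases on the plus strand and 215 at 1 base on the minus strand.

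Of the 12 strongest members inside genes 9 were displaced introns. In Blvrb, which encodes a biliverdin reductase abundant in red cells, a gap of 11059 bases on chr7:28233213-28244271 had 6752 and 5585 reads and lay 3 bases from the annotated intron. Itih2, which encodes a plasma protein heavy chain that binds hyaluronan, had 2 such members, with 6824 and 3869 reads and with 3019 and 2142 reads, each 1 base away. Slc25a3, the mitochondrial phosphate carrier, had a member of 209 bases with 5745 and 4333 reads. Its reads were 157% of those of the gene's strongest annotated junction.

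Sod1, the cytosolic superoxide dismutase, had 6350 and 2129 reads, Sdhd, a subunit of succinate dehydrogenase, had 2918 and 4785, and Dazap2 had 4847 and 2950. C3, the central complement protein, had 2849 and 2088 reads at a gap 2 bases from the annotated intron. The raw first count was higher in Blvrb, Itih2, Slc25a3, Sod1, Dazap2 and C3 and lower in Sdhd and Cdca3. Cdca3 had 2609 and 3432 reads. These directions are not scaled for the total, and the first count held 1.31 times the junction reads of the second. In erythroid genes the strongest displaced intron of Xpo7, a nuclear transport receptor, had 2482 and 1330 reads, and that of Nfe2, an erythroid transcription factor, 1282 and 2566.

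Only 3 of the 12 strongest members inside genes were not displaced. Ssr2, a subunit of the complex that helps proteins into the endoplasmic reticulum, had a GT-AG gap of 193 bases on chr3:88383609-88383801 with 3152 and 5296 reads. It lay within 1 annotated exon, and M21 has an intron of that length in Ssr2. Itih3, a gene of the same family as Itih2, had a gap of 1456 bases with other ends on chr14:31726382-31727837, with 3656 and 1979 reads. It was an intron of a de novo transcript model, that is, of a transcript the authors assembled from reads without the annotation. The third was a 64-base gap in Hbb-bs, described with the globins.

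The bases repeated at the 2 ends differed between the sets that could be read. A repeat of n bases at both ends means that the gap can slide by n bases without changing the spliced RNA. The 217 members with GT-AG ends that were not displaced had a median of 2 such bases, and 59 (27.2%) had at least 4. The 654 with other ends had a median of 4, and 349 (53.4%) had at least 4. Repeats of at least 12 bases occurred in 21 of the 217 and in 20 of the 654. With the globin genes left out, 276 of 501 members with other ends (55.1%) had at least 4. The readable members are those within exons, so these shares do not speak for members in introns or outside genes.

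**Figure D3:**
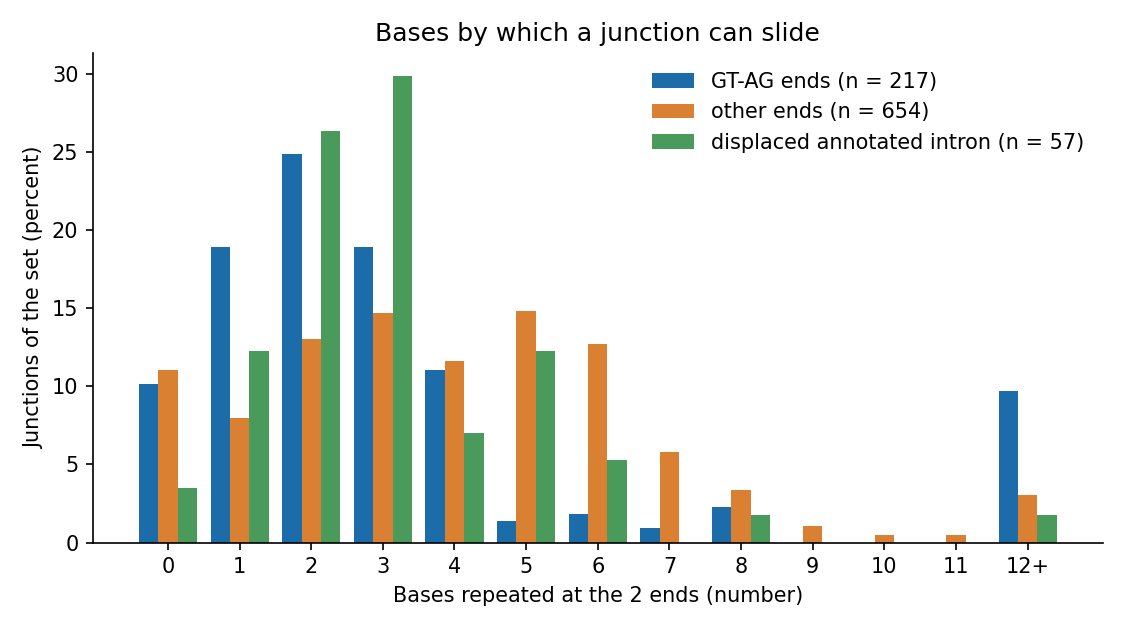
Percent of readable junctions (y axis) by the number of bases repeated at their 2 ends (x axis, with 12 and over joined), for GT-AG ends, other ends and displaced annotated introns. Members with GT-AG ends peak at 2 bases, members with other ends are spread from 0 to 7 with 96 at 3 and 97 at 5, and a separate group at 12 or more stands in both.

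Inside genes and apart from displaced introns, 2327 members had other ends and 825 had GT-AG ends. Of those with other ends 722 (31.0%) lay within a single annotated exon, with a median length of 81 bases, and 511 (22.0%) joined 2 exons of annotated transcripts. Without the adult globin genes 267 of 1825 (14.6%) joined 2 exons. Of those with GT-AG ends 335 (40.6%) lay within an exon, with a median of 163 bases, and 222 (26.9%) had neither flank in an exon, against 279 of the 2327 with other ends. Introns of equal length in the same gene were more common in the later M21 annotation for GT-AG members. Of 762 such members in genes with an M21 entry 191 (25.1%) had a length match, against 52 of 2299 (2.26%) with other ends. Of 822 displaced introns 798 had one, but these were picked for having the length of an annotated intron. Their share is therefore no comparison. A length match is not a match of position. It also favours GT-AG members, since 99.7% of annotated junctions carried the GT-AG mark.

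A larger share of the genes with more RNA held a member with other ends. Genes were grouped by their TPM (a transcript level that accounts for length) in the library with less. Of 50 genes at 1000 TPM and over 34 (68%) held a member with other ends that was not displaced. The share was 35.5% of 471 genes from 100 to 1000 TPM, 11.8% of 3967 genes from 10 to 100 TPM, and 2.93% of 6447 genes from 1 to 10 TPM. Of 26375 genes under 1 TPM, genes that the TPM tables do not list included, 0.318% did. The share that held a GT-AG member was 0.364% under 1 TPM and went from 2.76% to 5.07%, 11.3% and 24% over the same rising levels. The share that held a displaced intron was 0.254% under 1 TPM and then 6.45%, 6.15%, 4.25% and 6%. The displaced share thus rose from the lowest group to the next and was not higher in the 3 groups above, and the trends were not tested.

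The 5 genes with most members held 16.1% of all members inside genes. These were Hbb-bs with 150, Hba-a1 with 134, Hba-a2 with 123, Alb with 118 and Hbb-bt with 114. Their TPM in replicates 1 and 2 was 143676 and 126183 for Hbb-bs and 10324 and 8911 for Alb, which encodes serum albumin. The levels of Hba-a1 (58750 and 27545) and Hba-a2 (202603 and 355692) differed in opposite directions between the replicates. Whether the authors' counting splits reads between these closely similar copies was not tested. The globin members were weak beside the genes' own junctions, with a median of 0.000524% of the reads of the strongest annotated junction, which in Hba-a1 had 11695388 reads.

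The strongest globin member was a gap of 64 bases in Hbb-bs on chr7:110975213-110975276, with 7155 and 3608 reads. Its length equals that of the Hbb-bt gap with 2712 and 1671 reads whose sequence is given above. A gap of 655 bases likewise stood in both genes, with 2807 and 1858 reads in Hbb-bs and 2306 and 1917 in Hbb-bt. A gap of 81 bases in Hbb-bs went the other way between the counts, with 1570 and 3619 reads. In Hba-a1 the strongest member was a gap of 135 bases with 1510 and 1800 reads. Members of 31 bases, the shortest length of all, lay in Hba-a1 and in some other genes, and a member of this length in Hba-a1 had 112 and 278 reads. The embryonic globins and the other globin genes on the list held no member with both ends inside them. However, 3 members joined Hbb-bs to the embryonic globin Hbb-y, with 57 and 23 reads together.

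Alb and Afp, the alpha-fetoprotein gene beside it, held 198 members within 1 chain of 200, of which 9 had GT-AG ends. The strongest in Alb spanned 1122 bases on chr5:90904368-90905489 with 1293 and 653 reads, 0.399% of the gene's strongest annotated junction. The strongest in Afp spanned 522 bases with 122 and 121 reads. H19 held 54 members, 2 with GT-AG ends, with lengths of 31 to 301 bases and a median of 98. Trf, which encodes transferrin, held 27, of which 3 had GT-AG ends. None of the 200 members at the Alb and Afp chain was an intron of a de novo model.

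Other genes held GT-AG members in series. Mgam, an intestinal maltase-glucoamylase, held 37 members, 36 with GT-AG ends, at only 0.66 and 0.63 TPM, and 30 of the 36 in its main chain were introns of de novo models. The strongest Mgam member had 27 and 24 reads, and the strongest annotated Mgam junction had 68 reads in all. Firre, an X-linked noncoding RNA with repeated exons, held 34 members, every one with GT-AG ends, and the strongest by its smaller count had 145 and 89 reads. A gene without a symbol in the tables used, ENSMUSG00000090867, held 6 members of 142 to 634 bases on chromosome 19, all GT-AG, the strongest with 3167 and 1591 reads.

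Members with other ends also ran in series within genes. Cacfd1 held 24 members of 35 to 219 bases, none GT-AG, in a window of 0.248 kb, and the strongest had 61 and 86 reads. Peak1, a pseudokinase, held 15 at 1.76 and 1.44 TPM, led by a 33-base gap with 2797 and 898 reads, while its strongest annotated junction had 25 reads. The gene 2610005L07Rik held 19 members of 127238 to 127319 bases, with 231 and 147 reads in the strongest. On the mitochondrial chromosome, whose genes have no introns, 12 members all had other ends. The strongest was a gap of 111 bases in mt-Cytb with 53 and 132 reads.

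The cell type lists gave counts of genes that held a member, among genes at 1 TPM or more in both libraries. The background over all 10935 such genes was 16.1%. Of 48 erythroid genes 28 held 102 members, and of 55 hepatocyte genes 29 held 381. Of 15 granulocyte and mast cell genes 0 held one, of 12 macrophage genes 1 did (Lyz2, lysozyme, with 15 and 38 reads), of 11 megakaryocyte genes 2 and of 17 endothelial and stellate genes 2. The median level in the lower library was 124 TPM for the erythroid list, 169 TPM for the hepatocyte list and 32.9 TPM for the granulocyte and mast cell list. It was 11.6 TPM for macrophage, 9.98 TPM for megakaryocyte and 8.28 TPM for endothelial and stellate genes, and 7.44 TPM over all 10935 genes. The part of level in these counts was not tested.

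Among list members that were not displaced, Dmtn, which encodes the red cell skeleton protein dematin, had a gap of 636 bases with 710 and 551 reads. The megakaryocyte integrin Itga2b had a displaced intron with 176 and 201 reads, and Gp9, a platelet glycoprotein, had a gap of 460 bases with 5 and 11 reads. Col1a2, a collagen chain of stellate cells, had 155 reads in the first count and 17 in the second. In Cdh5, the endothelial cadherin, gaps of 57 and 87 bases had 7 and 7 reads and 7 and 6 reads. Of these, the 2 counts stood farthest apart in Col1a2.

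Members that reached past a gene were led by tandem gene copies. Of the 2441 on the strand of the gene, 1533 had each end in a different gene, and 55.6% of the 2441 joined the adult globin copies. Hba-a1 was joined to Hba-a2 by 745 members with 69190 and 66140 reads, and 12 of these had GT-AG ends. Their most common length was 12819 bases, in 185 members, and 406 (54.5%) were within 10 bases of it. Hbb-bt was joined to Hbb-bs by 612 members with 67786 and 37307 reads, 22 with GT-AG ends. Their most common length was 14011 bases, in 129 members, and 374 (61.1%) were within 10 bases of it. The annotated lower ends of Hbb-bt and Hbb-bs, in genome coordinates, lie 14010 bases apart, and those of Hba-a1 and Hba-a2 12978.

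The pairs Hba-a1 with Hba-a2 and Hbb-bt with Hbb-bs are closely similar copies, and the origin of the reads that join them was not tested. The strongest of these members, named after its value was seen, was a gap of 12816 bases on chr11:32183729-32196544 with 3153 and 5115 reads. A beta globin gap of 14664 bases had 2304 and 1717. Tuba1b and Tuba1a, both alpha tubulins, were joined by 11 members with a most common length of 18454 bases, beside 18416 bases between the genes' lower ends. Of the 136 gene pairs 113 had 1 member. Members past a gene with no end in an adult globin gene numbered 972, of which 335 had GT-AG ends, and 64.8% of the 972 were longer than 50 kb. The strongest GT-AG member of this kind, also named after its value was seen, had an end in Elob, an elongin subunit, spanned 104 bases on chr17:23965946-23966049 and had 3651 and 2625 reads.

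Very short and very long junctions made up a larger share of the members than of the annotated junctions. Members had a median length of 1655 bases with quartiles of 243 and 12820. Annotated junctions had a median of 1231, junctions with 1 annotated site 1143 and new pairings of annotated sites 6360. Members shorter than 70 bases numbered 461 (5.60%), 44 of them with GT-AG ends, against 0.0866% of annotated junctions. Members longer than 50 kb numbered 897 (10.9%), 115 of them with GT-AG ends, against 0.826% of annotated junctions. The longest member spanned 771788 bases on chromosome 7 from an end in Apoe, the apolipoprotein E gene, with 9 and 10 reads. The next, from the same end, spanned 647149 bases with the same 9 and 10 reads, and the third spanned 621380 with 69 and 14.

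**Figure D4:**
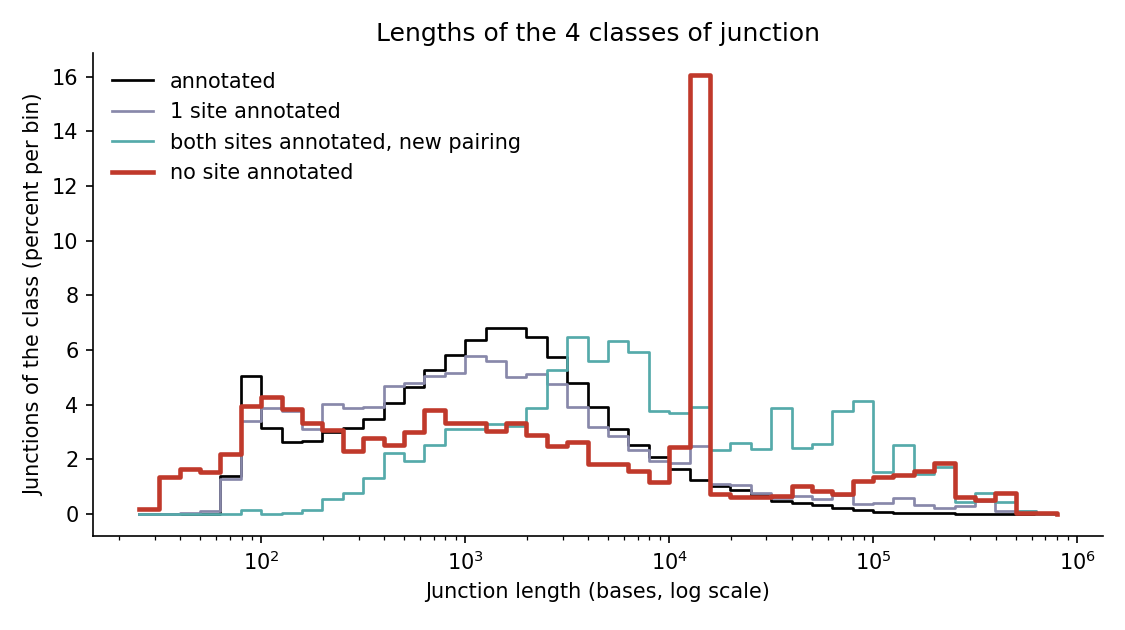
Percent of the junctions of each class (y axis) by junction length in bases (x axis, log scale), all with at least 5 reads in each replicate. Members, in red, show a narrow peak around the most common lengths of members that join globin copies, 12819 and 14011 bases. The share under 70 bases or over 50 kb is larger among members than among annotated junctions.

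Outside genes, 592 of 1329 members (44.5%) were introns of de novo transcript models, against 1825 of all 8228 (22.2%). With GT-AG ends 567 of 1081 (52.5%) were, and with other ends 25 of 248 (10.1%). Inside genes the de novo share was 272 of 882 (30.8%) for GT-AG ends and 726 of 3097 (23.4%) for other ends, and 594 of those 726 were displaced introns. Among members past a gene on its strand, 14 of 2056 with other ends were. The de novo models were deposited with the series on the same assembly, so they are no independent evidence for a junction. In 7665 members (93.2%) both ends touched a deposited contig, a stretch of continuous read coverage on the strand.

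The strongest member outside genes spanned 169623 bases on chr10:17044030-17213652, had other ends and 9068 and 2652 reads. The strongest with GT-AG ends spanned 3362 bases on chr14:31944563-31947924 and had 1612 and 946 reads. The next spanned 6022 bases on chr12:103207848-103213869 with 2609 and 887 reads. On chromosome 7 GT-AG gaps of 86 and 81 bases in 1 chain had 1598 and 793 and 1007 and 592 reads. On chr17:24656192-24664710 a GT-AG gap of 8519 bases had 632 and 967 reads, the only 1 of the 12 strongest outside or antisense with the higher value in the second count. A GT-AG gap of 1302 bases on chr1:9932799-9934100 had 1279 and 778 reads.

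In antisense position the strongest member was a 63-base gap with other ends opposite Zc3h7a on chr16:11144155-11144217, with 1594 and 698 reads. The strongest GT-AG members there lay opposite AA986860, with 200 and 153 reads, and opposite Ntn4, which encodes a netrin, with 334 and 127 reads. Opposite Gapdhs, a glycolytic enzyme gene of sperm listed at 0 TPM in both replicates, a GT-AG gap of 1942 bases had 153 and 116 reads. Both the Ntn4 and the Gapdhs members were introns of de novo models.

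Chains of members on 1 strand within 10 kb of each other made 3157 loci, 2221 of them with 1 member. The 2 largest held the alpha globins, with 1093 members, and the beta globins, with 910. The largest with members only outside genes lay on chr17:39760022-39984999, with 63 members, of which 4 had GT-AG ends, and 14314 and 7101 reads. Its strongest member spanned 1639 bases with 3675 and 2259 reads. The next 3 outside loci were all GT-AG. On the minus strand of chromosome 12, 22 members, all GT-AG, spanned 47.2 kb with 2574 and 1326 reads, and 7 of them were in de novo models. On the plus strand of chromosome 7, 19 members over 14.7 kb, and on the plus strand of chromosome 1, 17 over 28.3 kb, were also all GT-AG.

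Outside genes a pair of members around a single exon was compared with the later annotation. Of 716 members that stood in such a pair, with 20 to 2000 bases between the gaps, 317 (44.3%) had a pair whose intron, exon and intron lengths all equal those of an M21 gene on the same chromosome and strand. All 317 had GT-AG ends, against 310 of the 399 members in pairs without a match. A match to annotated introns favours GT-AG ends, which 99.7% of annotated junctions carried, so nothing is read from this contrast. The matched pairs came from 89 of 159 loci. Equal lengths name a candidate gene and do not place it, since no position was carried between the builds.

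Among the matched pairs, gaps of 228 and 268 bases around a 23-base exon matched Rpl41, a ribosomal protein gene, and had 2814 and 472 reads and 1024 and 555 reads. Gaps of 1282 and 6022 bases around 145 bases matched Ndufb1-ps, with 2103 and 340 reads in the first gap. A pair of 770 and 1793 bases matched Prpf4b, a kinase of the spliceosome, with 289 and 203 reads and 633 and 218 reads. Prpf4b also held a GT-AG member inside the mm9 gene, 498 bases with 395 and 235 reads. Gaps of 2317 and 123 bases matched Hnrnpa1, an RNA-binding protein, with 200 and 117 and 1246 and 306 reads. The locus on chr1:137005273-137029753, with 25 GT-AG members and 24 of them in de novo models, held pairs that matched Ptprv, a receptor phosphatase gene.

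The 2 counts were compared for every junction with at least 10 reads in all, by a two-sided exact binomial test against the ratio of total junction reads, 1.31 to 1. Benjamini-Hochberg adjustment ran over all 162376 junctions tested, and a call needed an adjusted p under 0.05 and at least a 2-fold difference. The test compares these 2 libraries and not any condition. Of all junctions tested 24.6% were called, 20.6% higher in the first count and 3.97% higher in the second. Of the 8228 members 1269 (15.4%) were called higher in the first count and 579 (7.04%) higher in the second, and since the counts chose the members nothing is read from this. With the median ratio of annotated junctions, 1.69, as the scale, an alternative chosen after the data were seen, the first was higher in 712 members and the second in 1030. The shares among all junctions were then 11.3% and 8.41%.

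On the log2 scale, relative to total reads, annotated junctions had a median ratio of first over second count of 0.40, with quartiles of -0.12 and 0.97. The displaced introns had a median of 0.40, with quartiles of -0.10 and 0.94. GT-AG members outside these and the globins had 0.06, and members with other ends had 0.01, with quartiles of -0.59 and 0.75. Members with an end in an alpha globin gene had a median of -0.01 and those with an end in an adult beta globin gene 0.25. The members were chosen by a minimum in each of these same counts. The annotated junctions here needed a minimum only in the total of both counts. The sets were thus filtered differently, and nothing is read from how far the medians of members lie from that of annotated junctions.

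**Figure D5:**
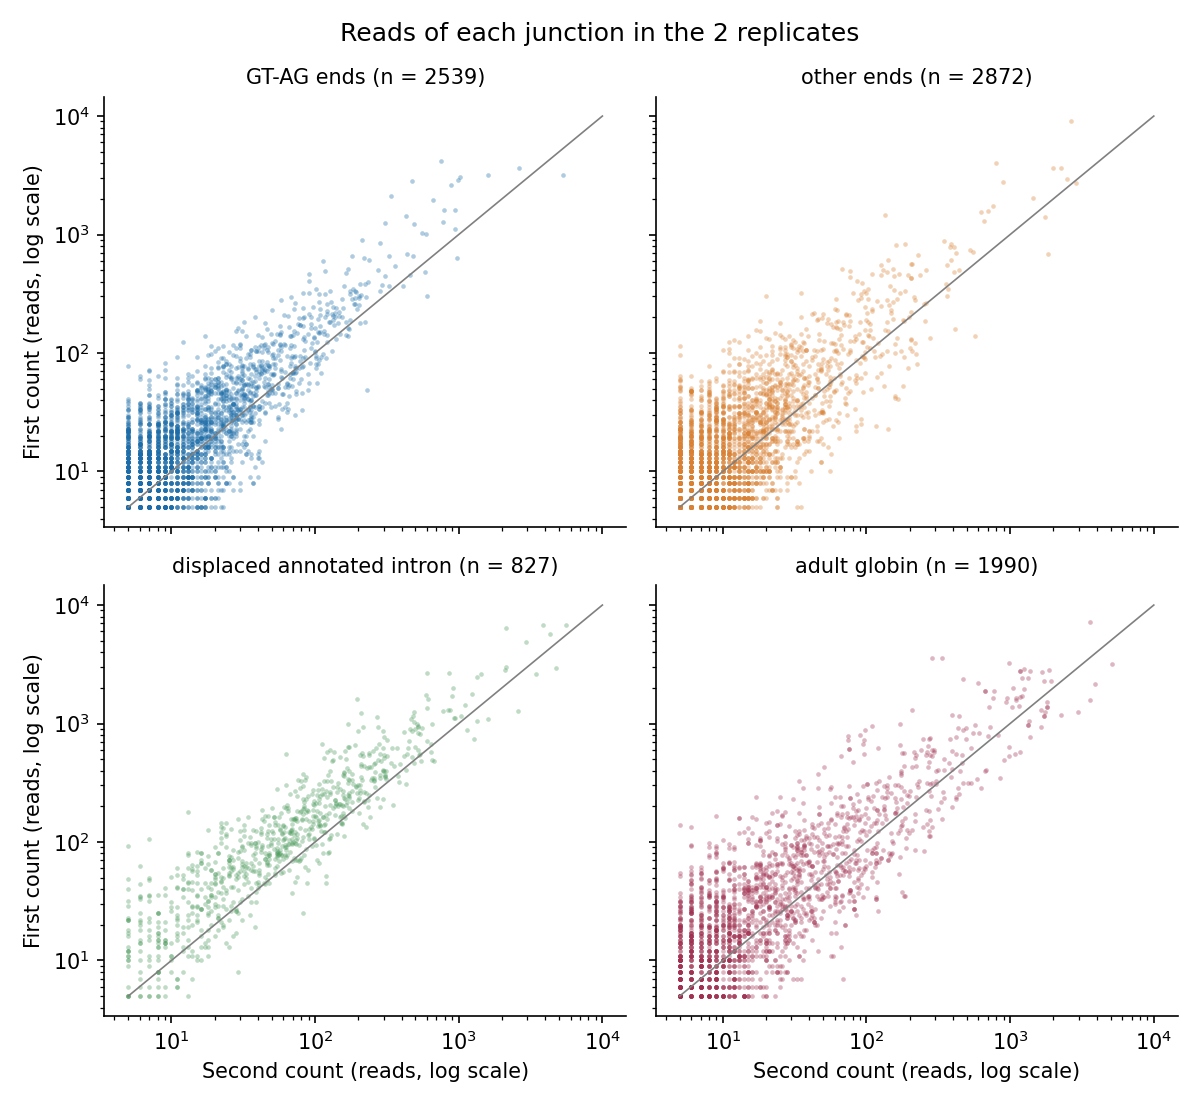
Reads of each member in the first count (y axis, log scale) against the second count (x axis, log scale), in 4 panels by kind, with a grey line of equal counts. The 827 displaced introns lie mostly above the line, which is not scaled for total junction reads, 1.31 to 1. Points of every panel reach down to the minimum of 5 reads in each count.

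At the lower edge of the rule, 1222 members (14.9%) had exactly 5 reads in their smaller count, with a median of 8 in the larger, and 30.4% had GT-AG ends. Just outside, 1700 junctions without an annotated site had 4 reads in the smaller count, a median of 7 in the larger and 31.9% with GT-AG ends. Of all 604603 junctions without an annotated site 470479 (77.8%) had 1 read in all. At the upper end 60 members had at least 1000 reads in both counts and held 24.3% of member reads. Of these 32 had an end in an adult globin gene and 17 were displaced introns.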

How the data were processed

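Per the labels, stranded polyadenylated RNA of 2 replicates was sequenced. The authors deposited splice junctions on mm9 with a read count in each replicate and, like a p-value, an irreproducible discovery rate, contigs with a coverage signal, of which positions and strands were used, annotated (Ensembl) and de novo (Cufflinks) exon models, and gene tables on mm10 with TPM. The aligner of the junctions is not given in the sources used here. Deposited counts entered as they were. Of the members 7757 (94.3%) had a rate of at most 0.1. At the same minimum of reads the share was 99.9% for annotated junctions and 99.6% for new pairings of annotated sites. For junctions with a single annotated site it was 99.1%, so the share was lowest among the members.

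The members, lists and named features were chosen with earlier results of these data known. Named are the 12 members with the highest smaller count inside genes and the 12 outside or antisense, the 3 longest and shortest, the 6 loci with most members and up to 6 members per list. Some features that these rules take are not reported here. All others named, and the printed sequences, were chosen after their values were seen. Displaced introns were searched up to 20 bases away. Ends were read from M21 transcripts of equal structure (68852 of 95495), with at least 15 exon bases on both sides, since no genome of the files' build was used. Of 1983 host genes 1924 had a symbol. The binomial test was tested on simulated data. It adds 0.5 to each count in log2 ratios. Python 3.11.15, numpy 2.4.6, pandas 2.3.3, scipy 1.17.1, statsmodels 0.14.6 and matplotlib 3.10.9 were used. Nothing says that the replicates came from separate litters. The binomial test has no estimate of the spread between libraries and treats reads as independent, so p-values, like the intervals, cover counting error only.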

Additional observations from a re-analysis of the deposited data

How the results depend on the processing

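The number of members was 4578 with at least 10 reads in each count, 12920 with at least 3, and 14674 to 20227 on 1 count alone. It was 5411 without displaced introns and adult globin genes, an alternative chosen, like every one for the GT-AG share and the displaced introns, after the data were seen. The share inside genes was 49.7% at 10 reads, 78.5% for any overlap with a gene on the strand, 52.4% for genes on either strand, and 48.5% to 52.0% on 1 count alone. The median length was 1505 bases at 3 reads, 1097 without displaced introns and globins, and 1384 to 1819 on 1 count alone. The de novo share was 28.8% at 10 reads, 18% at 3, 28.7% for a match within 10 bases, and 13.3% to 14.9% on 1 count alone. The GT-AG share was 31.4% at 10 reads, 46.9% without displaced introns and globins, and 26.8% to 28.5% on 1 count alone. The cause of these moves was not tested, beyond the junctions each setting adds or drops. The number of displaced introns (719 to 1009) and of members called different between the counts (1742 to 2548) stayed within 1.5 times the main values, and calls higher in the first count made up 68.7% of the members' calls, or 40.9% on the median scale, and 83.8% or 57.3% of those of all junctions. No paired analysis was possible because there is 1 group. Depth limits members near 5 reads, and the junctions under that minimum were not described.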
